A study of Mus musculus with 6 samples.

Results

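The genes described here are those of the mouse mitochondrial genome, chosen as every gene whose name begins with mt-. They were 37 of the 46072 genes in the separate FPKM tables, namely 13 mRNAs, 2 rRNAs and 22 tRNAs, and 8 of the 44382 entries of the table of the whole series. In RNA immune-precipitation with sequencing (RIP-seq), an antibody is used to pull down a protein, here EZH2, and the RNAs held by it are read. Left ventricles of male C57BL/6 mice aged 10 weeks were taken from 3 groups of 2 mice each, named Sham, AngII 4 h and AngII 24 h. AngII (Angiotensin II) came from an osmotic minipump set to 1 mg/kg/min for 4 or 24 h, and the Sham mice received saline according to the protocol, although their labels say untreated. The strain field reads C57BL/7 for the AngII 4 h and C57BL/8 for the AngII 24 h anti-EZH2 library and C57BL/6 for the other 4. About 100 mg of ventricle was lysed, and the lysate was incubated with 500 ng of anti-EZH2 or of normal IgG. From each group 2 RIP products were pooled into the library, so each combination of group and antibody had 1 library and there were no replicates. All differences are therefore between libraries and were not tested, and fewer cells of a type cannot be told apart from less RNA per cell.

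The mitochondrial genome is a small circle that is transcribed from both strands into long precursors. tRNAs lie between most of the mRNAs and rRNAs, and cutting the precursor at the tRNAs releases the other RNAs. The mRNAs encode core subunits of respiratory complexes I, III and IV and of ATP synthase (complex V), whose other subunits are encoded in the nucleus, and the rRNAs and tRNAs serve the translation of these mRNAs inside the organelle. The heart is rich in mitochondria, and these RNAs are abundant there. EZH2 is the catalytic subunit of Polycomb repressive complex 2, which methylates histone H3 in the nucleus.

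The tRNAs held the largest anti-EZH2/IgG ratios among these genes, and the 5 with reads in every library are shown by sequence. Each is read 5′ to 3′ from the GENCODE M21 transcript (GRCm38, mm10), with the 3 bases of the anticodon in capitals. The tRNA for serine, mt-Ts1, lies on the minus strand at chrM:6870-6938, the tRNA for methionine, mt-Tm, on the plus strand at chrM:3845-3913, and the tRNA for valine, mt-Tv, on the plus strand between the rRNAs at chrM:1025-1093. The tRNA for histidine, mt-Th, is at chrM:11546-11612 on the plus strand, and the tRNA for proline, mt-Tp, at chrM:15356-15422 on the minus strand.
mt-Ts1: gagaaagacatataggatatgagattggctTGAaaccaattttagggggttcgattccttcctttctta
mt-Tm: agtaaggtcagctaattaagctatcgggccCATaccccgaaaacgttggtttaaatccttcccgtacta
mt-Tv: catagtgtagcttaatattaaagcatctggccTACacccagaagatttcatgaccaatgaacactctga
mt-Th: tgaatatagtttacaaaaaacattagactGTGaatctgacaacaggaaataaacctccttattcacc
mt-Tp: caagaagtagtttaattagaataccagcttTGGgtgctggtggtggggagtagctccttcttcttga

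The values are FPKM, the fragments per kilobase of transcript per 1000000 mapped fragments. In a library the FPKM of the tRNAs followed steps of whole reads, so the reads behind them could be recovered, and the scale gave totals between 3822218 (AngII 24 h, IgG) and 7996480 fragments (AngII 4 h, anti-EZH2). Markers of cardiomyocytes, such as Myl2 and Tnni3, were above 0 in every library, with a summed FPKM of 10 markers between 6508 and 11400. Those of other cells were lower, from 8.65 to 21.9 for 3 endothelial, from 10.9 to 18.7 for 3 leukocyte and from 42.2 to 64.5 for 4 fibroblast markers, while 5 erythroid markers reached 587 to 1454. The adipocyte markers Adipoq and Plin1 were at 0 in 5 libraries, with Adipoq at 0.521 in the Sham anti-EZH2 library, and the atrial marker Sln was at 0 in all 6. The other atrial markers were higher in Sham than after AngII. Myl7 was at 14.3, 0.491 and 0 FPKM with IgG and 12.2, 0.323 and 0 with anti-EZH2, each in the order Sham, AngII 4 h and AngII 24 h, and Nppa at 20.2, 10.6 and 5.14 with IgG and 10.8, 10.2 and 5.36 with anti-EZH2. The part of this difference between the samples in the AngII comparisons was not tested.

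The levels of 7 mRNAs cannot be separated from those of nuclear copies. Pseudogenes on chromosome 1 carry stretches of mitochondrial sequence on the minus strand between chr1:24611535-24612410 (Gm28439) and chr1:24615706-24616197 (Gm29216), and 7 of them matched a mitochondrial mRNA over at least 200 nt with at least 99% identity. Gm28661 was identical to 681 nt of mt-Co2, Gm10925 to 678 nt of mt-Atp6, Gm28437 to 783 nt of mt-Co3 and Gm10222 to 294 nt of mt-Nd4l. Gm28438 matched 345 nt of mt-Nd3 at 99.7%, Gm29216 483 nt of mt-Co1 at 99.8%, and Gm28439 876 nt of mt-Nd4 at 100%.

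In the separate tables these copies were listed at 370 to 5729 FPKM. For the 5 copies that span nearly the whole mRNA, the FPKM of the copy was 0.959 to 1.01 times that of the mitochondrial gene in every library, and for the partial copies of mt-Co1 and mt-Nd4 it was 0.578 to 0.807 times. The FPKM of the copy of mt-Co3 in the Sham IgG library, for example, was 2295 and that of mt-Co3 was 2291. In the table of the whole series 6 of the copies had an entry, and there the highest of their 36 values was 1.79 FPKM and 26 were at 0. Adding the reads listed under the copies raised the summed level of the 13 mRNAs by 1.37 to 1.40 times and left the median anti-EZH2/IgG ratio at 1.06 in Sham, 0.823 for AngII 4 h and 0.734 for AngII 24 h, which were 1.03, 0.823 and 0.729 as listed. The listed copies followed their mRNAs from library to library, so adding them could hardly move a ratio between libraries. The levels of these 7 mRNAs beside the other 6 thus depend on where the shared reads were counted.

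**Figure D1:**
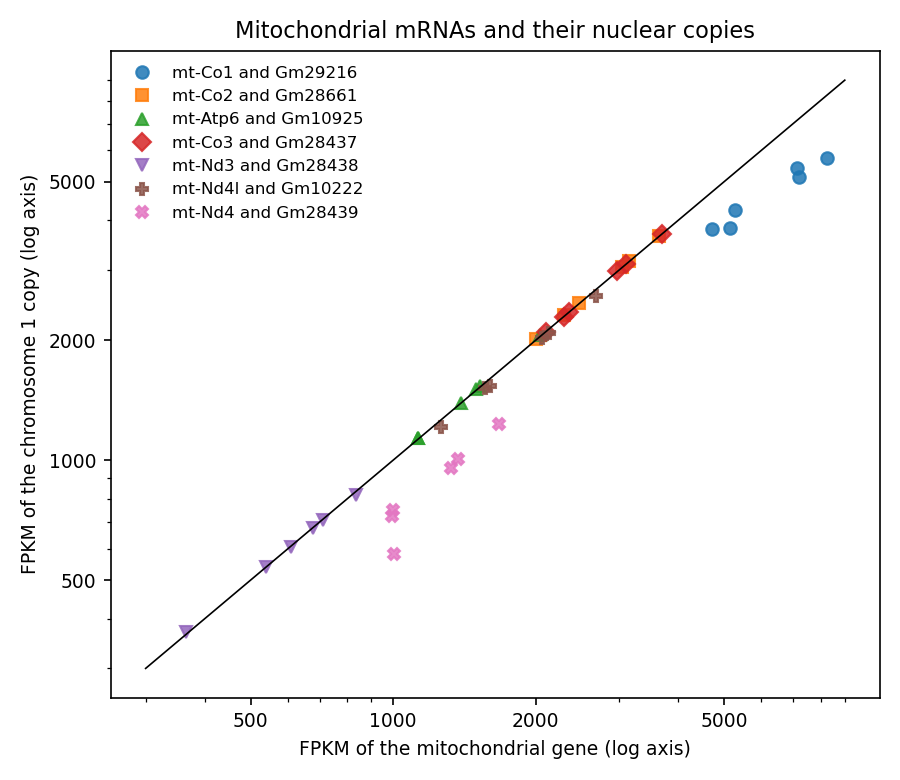
FPKM of 7 mitochondrial mRNAs (horizontal log axis) and of their chromosome 1 copies (vertical log axis) in the separate tables, 6 points a pair, 1 for each library, with a line where both are equal. The 5 copies that span nearly the whole mRNA lie on the line (0.959 to 1.01 times the mRNA), and the partial copies of mt-Co1 and mt-Nd4 lie below it (0.578 to 0.807 times).

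Levels are given as listed, first with IgG and then with anti-EZH2, and each time in the order Sham, AngII 4 h and AngII 24 h. Complex IV, cytochrome c oxidase, passes electrons to oxygen, and its catalytic subunit is the product of mt-Co1 (chrM:5328-6872). The FPKM of mt-Co1 was 5276, 8244 and 7119 with IgG and 5157, 7216 and 4725 with anti-EZH2. It was the highest of the 13 mRNAs in each of the 6 libraries, with or without the copies. The FPKM of mt-Co2 (chrM:7013-7696), which encodes the subunit that takes electrons from cytochrome c, was 2471, 3644 and 3042 with IgG and 2298, 3147 and 2006 with anti-EZH2. The FPKM of mt-Co3 (chrM:8607-9390) was 2291, 3699 and 2977 with IgG and 2357, 3108 and 2099 with anti-EZH2. In all 3 of these genes the AngII 4 h library was the highest for each antibody.

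Complex V makes ATP from the proton gradient, and mt-Atp8 (chrM:7766-7969) and mt-Atp6 (chrM:7927-8607) encode subunits of its membrane part in overlapping reading frames of 1 transcript. The FPKM of mt-Atp8 was 1517, 4059 and 3025 with IgG and 3012, 3527 and 3127 with anti-EZH2. The Sham IgG library stood below the other 5, which lay between 3012 and 4059. The FPKM of mt-Atp6 was 1128, 2046 and 1500 with IgG and 1388, 1527 and 1129 with anti-EZH2. At 204 nt mt-Atp8 is the shortest of the mRNAs, and its 206 reads (estimated) in the Sham IgG library were the fewest of any mRNA.

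Complex III passes electrons to cytochrome c, and its only mitochondrially encoded subunit is cytochrome b. The FPKM of mt-Cytb (chrM:14145-15288) was 2321, 3361 and 2559 with IgG and 2040, 2772 and 1749 with anti-EZH2. No copy above the limits was annotated for this gene, and it was lower with anti-EZH2 than with IgG in each group. So was the median nuclear protein-coding gene, with ratios of 0.777, 0.909 and 0.647 beside 0.879, 0.825 and 0.684 for mt-Cytb.

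Complex I takes electrons from NADH, and 7 of its subunits are encoded here. The FPKM of mt-Nd1 (chrM:2751-3707), the first mRNA after the rRNAs, was 1685, 3245 and 2183 with IgG and 1872, 2672 and 1651 with anti-EZH2. The FPKM of mt-Nd2 (chrM:3914-4951) was 668, 1146 and 791 with IgG and 705, 820 and 619 with anti-EZH2. Both were higher with anti-EZH2 than with IgG in Sham and lower after AngII. The FPKM of mt-Nd3 (chrM:9459-9806) was 366, 835 and 677 with IgG and 538, 608 and 711 with anti-EZH2. As listed it was the lowest mRNA in 5 of the 6 libraries, with mt-Nd2 the lowest in the AngII 24 h anti-EZH2 library, and with the reads of the copies added mt-Nd2 was the lowest in all 6.

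The reading frames of mt-Nd4l (chrM:9877-10173) and mt-Nd4 (chrM:10167-11544) overlap on 1 transcript, as those of mt-Atp8 and mt-Atp6 do. The FPKM of mt-Nd4l was 1606, 2677 and 2059 with IgG and 1563, 2138 and 1262 with anti-EZH2. The FPKM of mt-Nd4 was 1004, 1674 and 1372 with IgG and 997, 1322 and 1001 with anti-EZH2. Although the members of each pair share a transcript, the FPKM of mt-Nd4l was 1.26 to 1.62 times that of mt-Nd4 and the FPKM of mt-Atp8 was 1.35 to 2.77 times that of mt-Atp6. With the reads of the copies added these ranges were 1.71 to 2.32 and 0.673 to 1.38.

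The FPKM of mt-Nd5 (chrM:11742-13565), the longest mRNA, was 1199, 1983 and 1542 with IgG and 1056, 1601 and 1026 with anti-EZH2. mt-Nd6 (chrM:13552-14070) is the only mRNA of the minus strand, and its last bases overlap those of mt-Nd5. The FPKM of mt-Nd6 was 1045, 2080 and 1669 with IgG and 1142, 1712 and 1229 with anti-EZH2. Relative to the median of the 12 plus-strand mRNAs of the same library, mt-Nd6 was 0.669, 0.702 and 0.787 with IgG and 0.665, 0.712 and 0.844 with anti-EZH2. With the reads of the copies added it was 0.530, 0.561 and 0.601 with IgG and 0.474, 0.588 and 0.613 with anti-EZH2. Either way the AngII 24 h libraries were the highest for each antibody. The kit keeps the strand, but whether the counting used it is not given in the sources used here, and otherwise RNA of the opposite strand would be counted too.

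**Figure D2:**
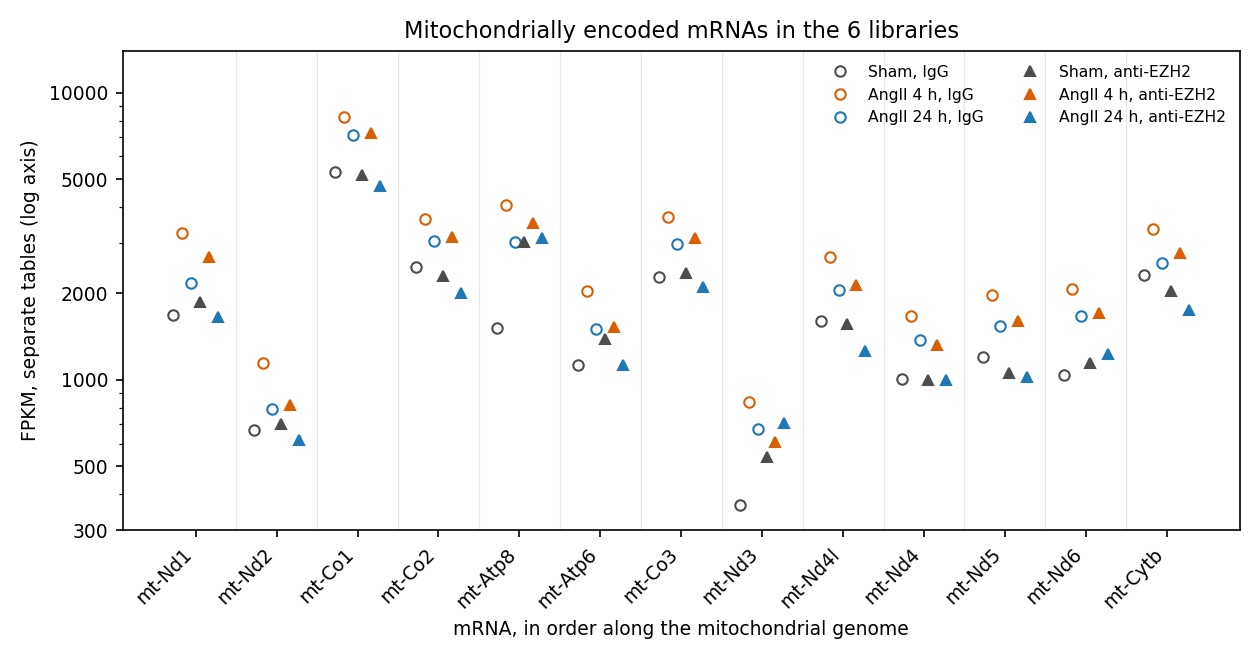
FPKM of the 13 mitochondrial mRNAs in the separate tables (vertical log axis), in order along the genome, with open circles for IgG and filled triangles for anti-EZH2 libraries and 1 point for each of the 6 libraries. The AngII 4 h IgG library is the highest for 13 of 13 mRNAs, and mt-Co1 is the highest mRNA in every library (4725 to 8244 FPKM).

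The anti-EZH2/IgG ratio asks which RNAs came down with EZH2 more than with normal IgG, and the mRNAs lay near the nuclear genes in this. In Sham the ratio was above 1 for 7 and below 1 for 6 of the 13 mRNAs, with a median of 1.03 and a range of 0.879 to 1.99. The highest were mt-Atp8 (1.99), mt-Nd3 (1.47) and mt-Atp6 (1.23), and the lowest were mt-Cytb (0.879) and mt-Nd5 (0.881). At AngII 4 h the ratio was below 1 for 13 of 13, with a median of 0.823 and a range of 0.716 (mt-Nd2) to 0.875 (mt-Co1). At AngII 24 h it was below 1 for 11 of 13, with a median of 0.729, and the other 2 were mt-Nd3 (1.05) and mt-Atp8 (1.03), while mt-Nd4l was the lowest (0.613).

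As listed, no mRNA was past 2-fold in either direction in any group, whereas relative to the nuclear median mt-Atp8 in Sham was past 2-fold higher. Of all genes compared, those above 0 in both libraries and above 1 FPKM in at least 1 of them, 14.3% were past 2-fold higher with anti-EZH2 and 22.6% past 2-fold lower in Sham. At AngII 4 h these shares were 12.8% and 14.3%, and at AngII 24 h they were 9.35% and 35.7%. The median ratio of nuclear protein-coding genes was 0.777 in Sham, 0.909 for AngII 4 h and 0.647 for AngII 24 h. Relative to it the median of the mRNAs was 1.32, 0.905 and 1.13 times, in this order of groups. mt-Co1, the most abundant mRNA, was above 64.0% of the nuclear protein-coding genes in Sham, 46.5% for AngII 4 h and 51.7% for AngII 24 h. mt-Atp8 was above 87.8%, 46.0% and 75.7% of them.

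**Figure D3:**
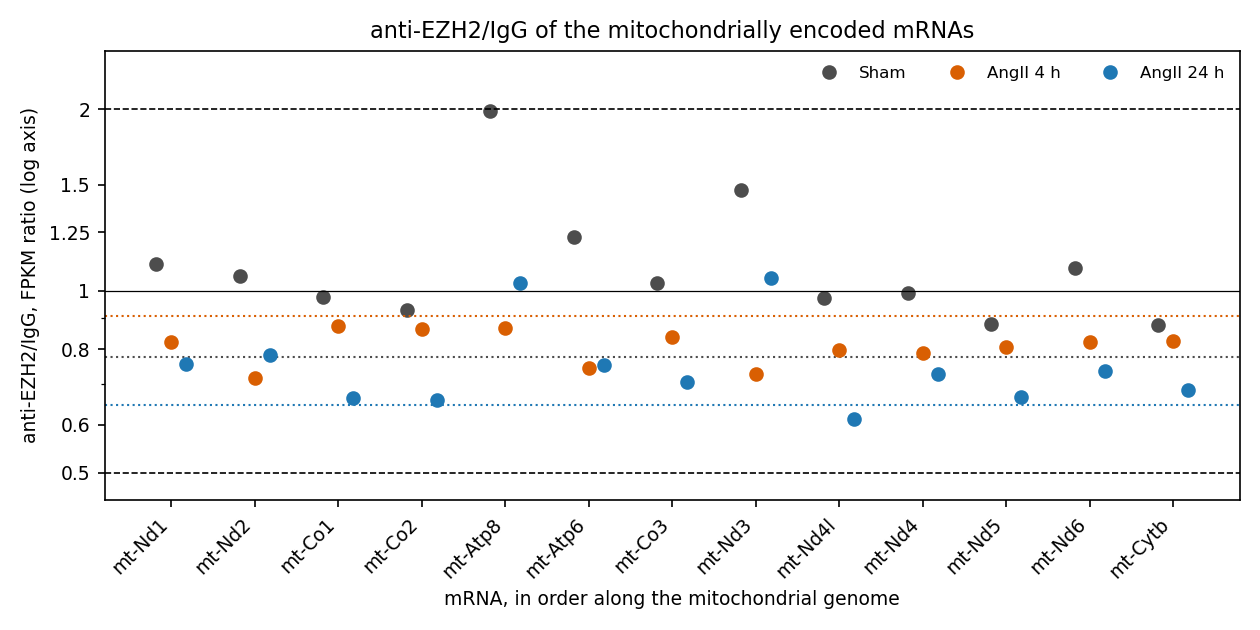
anti-EZH2/IgG ratio of FPKM (vertical log axis) of the 13 mitochondrial mRNAs in Sham, AngII 4 h and AngII 24 h, 1 point for each mRNA and group. Dotted lines are the medians of nuclear protein-coding genes in the same colours (0.777, 0.909 and 0.647), dashed lines mark 2-fold, and no mRNA passes them, with mt-Atp8 in Sham the closest at 1.99.

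The mRNAs under 400 nt, mt-Atp8, mt-Nd4l and mt-Nd3, spread more than the 10 longer ones in Sham and at AngII 24 h but not at AngII 4 h. In Sham the ratio of the short mRNAs ranged from 0.973 to 1.99 and that of the longer ones from 0.879 to 1.23. At AngII 24 h these ranges were 0.613 to 1.05 and 0.659 to 0.783, and at AngII 4 h they were 0.729 to 0.869 and 0.716 to 0.875. Across the 13 mRNAs, Spearman's rho between length and ratio was -0.59 in Sham, 0.06 for AngII 4 h and -0.32 for AngII 24 h, a description over genes that share 2 libraries in each group. The part that length has in the values of the short mRNAs was not tested.

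Comparing libraries of the same antibody asks how the RNAs changed after AngII, and with IgG the AngII 4 h library was higher than Sham for 13 of 13 mRNAs. The median change was 1.67-fold (1.45 to 2.68), beside 1.17-fold for nuclear protein-coding genes. mt-Atp8 (2.68) and mt-Nd3 (2.28) were past 2-fold higher, as were 19.6% of all genes compared, and none was past 2-fold lower, against 14.5%. The IgG library of AngII 24 h was also higher than that of Sham for 13 of 13, by a median of 1.30-fold (1.10 to 1.99), beside 1.21-fold for the nuclear genes. By the table of the whole series, with 3 mRNA entries, this median was 0.444 and thus the other way, beside 1.67 for the nuclear genes by that table. In the separate tables no mRNA was past 2-fold, against 22.9% of all genes higher and 12.8% lower.

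With anti-EZH2 the AngII 4 h library was higher than Sham for 13 of 13 mRNAs, by a median of 1.36-fold (1.10 to 1.52). The nuclear genes had a median of 1.35-fold, which left 1.01 relative to them for the mRNAs. At AngII 24 h 4 were higher and 9 lower than in Sham, with a median of 0.891 (0.807 to 1.32) beside 0.997 for the nuclear genes. The 4 were mt-Nd3, mt-Nd6, mt-Atp8 and mt-Nd4, with ratios between 1.00 and 1.32. No mRNA was past 2-fold in either direction at either time, against 23.3% of all genes higher and 12.9% lower at AngII 4 h and 15.8% higher and 23.4% lower at AngII 24 h. From AngII 4 h to AngII 24 h the mRNAs were lower for 13 of 13 with IgG, by a median ratio of 0.778 (0.673 to 0.864) beside 1.03 for the nuclear genes, and for 12 of 13 with anti-EZH2, by 0.675 (0.590 to 1.17) beside 0.726. By the table of the whole series, the mRNA entries with anti-EZH2 had medians of 1.33 for AngII 4 h over Sham and 0.709 for AngII 24 h over Sham. For AngII 24 h over AngII 4 h their median was 0.470. The nuclear genes by that table had 0.993, 1.81 and 1.89, so there the mRNAs at AngII 24 h lay further below the nuclear genes. These comparisons share the libraries of each antibody.

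The summed FPKM of the cardiomyocyte markers, like that of the mRNAs, was highest at AngII 4 h for each antibody. It was 8401, 11400 and 10210 with IgG and 6508, 10220 and 6723 with anti-EZH2, and the summed FPKM of the 13 mRNAs was 2.69, 3.39 and 2.99 times as high with IgG and 3.71, 3.15 and 3.32 times with anti-EZH2. The part of the cell make-up of the samples in the values was not tested. The mRNAs held 22.2%, 30.1% and 25.3% of the FPKM of protein-coding genes with IgG and 26.8%, 26.6% and 25.8% with anti-EZH2. The 3 anti-EZH2 libraries thus lay closer together in this share than the 3 IgG libraries.

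The make-up of the mRNA pool does not depend on the scale of a library. mt-Co1 took 21.2% to 23.4% of the summed FPKM of the 13 mRNAs, mt-Co3 9.40% to 10.1%, mt-Co2 8.98% to 10.9% and mt-Cytb 7.83% to 10.3%. For 11 of the 13 the highest share was at most 1.31 times the lowest. The exceptions were mt-Atp8, at 6.72%, 10.5% and 9.91% with IgG and 12.5%, 11.0% and 14.0% with anti-EZH2, and mt-Nd3, at 1.62%, 2.16% and 2.22% with IgG and 2.23%, 1.89% and 3.18% with anti-EZH2. Both were lowest in the Sham IgG library and highest in the AngII 24 h anti-EZH2 library. By complex, complex IV held 39.5% to 44.5%, complex I 32.6% to 35.3%, complex V 11.7% to 19.1% and complex III 7.83% to 10.3%. With the reads of the copies added these ranges were 44.8% to 49.8%, 30.8% to 33.1%, 11.9% to 17.5% and 5.70% to 7.35%.

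The rRNAs were the most abundant of these genes, and their record is incomplete. mt-Rnr1 (chrM:70-1024), the RNA of the small ribosomal subunit, was listed at 126492, 197165 and 133136 FPKM with IgG and at 140189 and 139207 FPKM with anti-EZH2 in Sham and AngII 24 h. mt-Rnr2 (chrM:1094-2675), the RNA of the large subunit, was listed at 110613 and 110258 FPKM with IgG in Sham and AngII 24 h and at 136842 FPKM with anti-EZH2 at AngII 24 h. The other values, mt-Rnr2 in 3 libraries and mt-Rnr1 in the AngII 4 h anti-EZH2 library, are given as 0 with the status HIDATA, which marks a locus with too many fragments to be estimated. The 3 libraries without a value for mt-Rnr2 were those with the most fragments, so these zeros are not low levels.

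Where mt-Rnr1 was listed, its FPKM was 64.6 to 110 times the median of the mRNAs. Its anti-EZH2/IgG ratio was 1.11 in Sham and 1.05 at AngII 24 h, and that of mt-Rnr2 was 1.24 at AngII 24 h. The FPKM of mt-Rnr2 was 0.874 and 0.828 times that of mt-Rnr1 with IgG in Sham and AngII 24 h and 0.983 times with anti-EZH2 at AngII 24 h. In the 3 libraries with values for both, the rRNAs accounted for an estimated 24.8% (Sham, IgG), 25.2% (AngII 24 h, IgG) and 29.3% (AngII 24 h, anti-EZH2) of the fragments, and the mRNAs for 1.60% to 2.89% over all 6.

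The share of the FPKM held by all 37 genes, 12.4%, 13.7% and 13.9% with IgG and 12.0%, 6.72% and 31.3% with anti-EZH2, leaves out the missing values. The lowest share was that of the AngII 4 h anti-EZH2 library, in which neither rRNA had a value. The highest was that of the AngII 24 h anti-EZH2 library, whose FPKM summed to 1066000 beside 1714000 to 2166000 in the others. The mRNAs alone held 1.04% to 2.09% of the FPKM.

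The tRNAs, which carry amino acids to the mitochondrial ribosome, were higher with anti-EZH2 than with IgG in each group, at low depth. They are 59 to 75 nt long, and at 69 nt 1 read was worth 234 to 471 FPKM, so they are compared in reads. The 22 tRNAs together had 21, 102 and 42 reads with IgG and 219, 353 and 90 reads with anti-EZH2. This was 4.84, 19.4 and 11.0 reads per 1000000 fragments with IgG and 38.4, 44.1 and 18.8 with anti-EZH2. The ratio of anti-EZH2 to IgG was 7.92 in Sham (95% interval 5.05 to 13.1), 2.28 for AngII 4 h (1.82 to 2.87) and 1.71 for AngII 24 h (1.17 to 2.53). These exact Clopper-Pearson intervals cover counting error only.

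Across groups the antibodies overlapped, since the AngII 24 h anti-EZH2 library (18.8 per 1000000) was below the AngII 4 h IgG library (19.4). The Sham IgG library was the lowest of the 6, and it sets the ratio of Sham. Against the IgG libraries of AngII 24 h and AngII 4 h the Sham anti-EZH2 library was 3.49 times (2.50 to 4.98) and 1.98 times (1.56 to 2.53) as high.

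By FPKM 7 of the 22 tRNAs had reads in both libraries of Sham, 11 in those of AngII 4 h and 7 in those of AngII 24 h, and the others had 0 reads in at least 1 of the libraries and no ratio. Past 2-fold higher with anti-EZH2 were 5 of 7, 6 of 11 and 3 of 7, against the 14.3%, 12.8% and 9.35% of all genes. None of those with a ratio was past 2-fold lower. Other genes with transcripts of up to 100 nt had higher median ratios than all genes in Sham and at AngII 4 h but not at AngII 24 h. The median was 2.40 in Sham (26 genes), 1.32 for AngII 4 h (55 genes) and 0.621 for AngII 24 h (19 genes), beside 0.808, 0.929 and 0.638 over all genes, and 53.8%, 20.0% and 26.3% of them were past 2-fold higher. The part that length has in the ratios of the tRNAs was not tested.

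mt-Ts1, which reads 1 of the serine codon families, had the most reads of any tRNA in 5 of the 6 libraries, and in the Sham IgG library mt-Tm had more. It had 3, 30 and 13 reads with IgG and 78, 119 and 40 with anti-EZH2. The ratio of reads was 19.7 in Sham (6.51 to 97.8), 2.61 for AngII 4 h (1.74 to 4.04) and 2.46 for AngII 24 h (1.29 to 5.00), and each interval lay above 1. Its bases overlap the end of mt-Co1, which runs on the opposite strand.

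mt-Tm, the only methionine tRNA of the organelle, had 10, 29 and 5 reads with IgG and 61, 86 and 14 with anti-EZH2. The ratio was 4.63 (2.36 to 10.1) in Sham, 1.95 (1.27 to 3.09) for AngII 4 h and 2.23 (0.760 to 7.93) for AngII 24 h, so that the last interval holds 1. mt-Tv had 3, 11 and 6 reads with IgG and 33, 60 and 7 with anti-EZH2, and its ratio was 8.35 (2.62 to 42.6), 3.59 (1.87 to 7.57) and 0.931 (0.268 to 3.35). Between Sham and AngII 4 h on the one side and AngII 24 h on the other the intervals of mt-Tv overlap, and they do so for mt-Tm.

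mt-Th had 1, 3 and 1 reads with IgG and 8, 18 and 2 with anti-EZH2, and its ratio was 6.07 (0.814 to 270) in Sham and 3.95 (1.15 to 20.9) at AngII 4 h. mt-Tp had 2, 3 and 1 reads with IgG and 3, 12 and 2 with anti-EZH2, and its intervals held 1 in every group. For these a difference was detectable at this depth only for mt-Th at AngII 4 h.

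**Figure D4:**
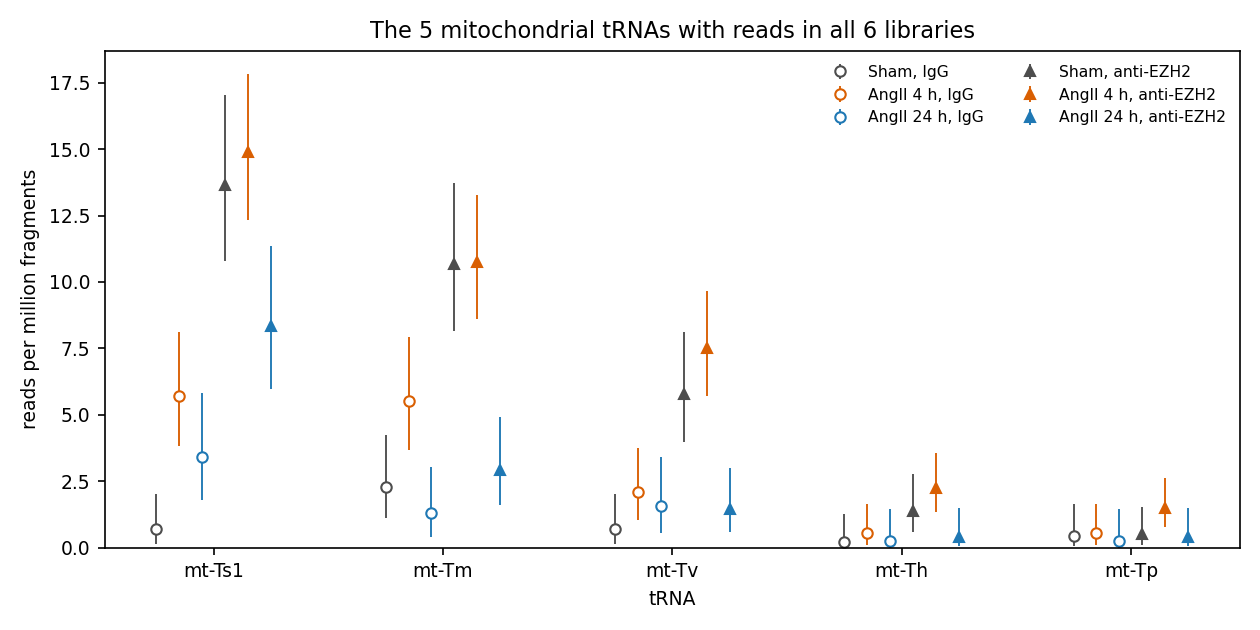
Reads per 1000000 fragments of the 5 mitochondrial tRNAs with reads in all 6 libraries, with exact 95% Poisson intervals that cover counting error only, open circles for IgG and filled triangles for anti-EZH2. mt-Ts1 rests on 3 to 119 reads, and its anti-EZH2 points lie above the IgG point of the same group in each of the 3 groups.

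mt-Ts1, mt-Tm and mt-Tv together held 57.1% to 78.5% of the tRNA reads of a library. Without them the ratio of the remaining tRNAs was 7.14 (2.85 to 23.0) in Sham, 1.81 (1.20 to 2.80) for AngII 4 h and 1.29 (0.690 to 2.46) for AngII 24 h. A further 10 tRNAs had reads in some libraries, with 1 to 16 reads where they had any. Of these mt-Tq, for glutamine, had 11 reads with anti-EZH2 and 8 with IgG at AngII 24 h. mt-Tn, for asparagine, had 16 with anti-EZH2 and 5 with IgG at AngII 4 h but 0 with anti-EZH2 and 6 with IgG at AngII 24 h. The interval of mt-Tn at AngII 24 h, 0 to 0.678, lay below 1, although without a ratio it could not be called past 2-fold lower.

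The other 7, mt-Ti, mt-Td, mt-Tk, mt-Tr, mt-Ts2, mt-Tl2 and mt-Tt, had no read in any library, and all of them are among the 14 plus-strand tRNAs. A count of 0 allows up to 3 reads, which is 0.375 to 0.785 reads per 1000000 fragments depending on the library. All 8 minus-strand tRNAs had reads in at least 1 library. The minus-strand tRNAs together had ratios of 10.7 (5.02 to 27.4), 2.02 (1.48 to 2.81) and 1.65 (1.04 to 2.67), and the plus-strand tRNAs 6.51 (3.73 to 12.3), 2.55 (1.86 to 3.57) and 1.84 (0.932 to 3.85), in the order Sham, AngII 4 h and AngII 24 h. Intervals of the strands overlapped in each group.

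By the separate tables, the nuclear subunits of the same complexes had lower ratios than the mitochondrial ones in Sham and at AngII 24 h. The list of 77 nuclear-encoded subunits of oxidative phosphorylation had a median anti-EZH2/IgG ratio of 0.747 in Sham, 0.906 for AngII 4 h and 0.578 for AngII 24 h. None of them was past 2-fold higher, and 5, 0 and 16 were past 2-fold lower, against 22.6%, 14.3% and 35.7% of all genes. In complex I the median ratio was 1.06, 0.799 and 0.736 for the 7 mitochondrial mRNAs and 0.731, 0.904 and 0.558 for 36 nuclear genes, in the same order of groups. In complex IV it was 0.978, 0.864 and 0.664 for 3 mitochondrial mRNAs and 0.778, 0.882 and 0.567 for 13 nuclear genes. In complex V it was 1.61, 0.807 and 0.893 for mt-Atp8 and mt-Atp6 and 0.747, 0.939 and 0.566 for 15 nuclear genes. In complex III the ratio of mt-Cytb was 0.879, 0.825 and 0.684, and the median of 9 nuclear genes was 0.768, 0.874 and 0.620. By the series table complex III went the other way in Sham, with 0.893 for the mt-Cytb entry and 1.09 for the nuclear genes. At AngII 24 h that table kept the order, with 1.16 and 0.928. Complex II, which has no mitochondrially encoded subunit, had medians of 0.623, 0.898 and 0.627 over 4 genes.

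In level the mitochondrial mRNAs stood above their nuclear partners. The median FPKM of the complex I mRNAs was 17.7 to 26.2 times that of the nuclear complex I genes, and the range was 19.3 to 28.6 times in complex III, 13.2 to 16.3 times in complex IV and 8.07 to 19.3 times in complex V, where the Sham IgG library was the lowest. These are levels as listed. Every complex IV mRNA has a nuclear copy and mt-Cytb has none, so the order of the complexes depends on where the shared reads were counted. In the Sham IgG library mt-Co2 was at 2471 FPKM as listed and at 4942 with the reads of its copy added. Atp5b, the catalytic beta subunit of ATP synthase, was the most abundant nuclear gene of the list, with 498, 738 and 835 FPKM with IgG and 372, 608 and 372 with anti-EZH2. At AngII 24 h its ratio of 0.445 was past 2-fold lower.

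Genes that serve mitochondrial RNA were mostly low in FPKM. The median of a library was 1.21 to 1.65 FPKM for transcription and replication and 1.01 to 2.29 FPKM for RNA processing and stability. Some were higher, such as Fastk with up to 38.25 FPKM. Of 14 genes of transcription and replication, 10, 10 and 9 could be compared, and 2, 1 and 2 were past 2-fold higher and 3, 1 and 2 lower. Of 20 genes of RNA processing and stability, 14, 17 and 15 could be compared, with 1, 3 and 1 higher and 3, 2 and 7 lower. Of all genes 14.3%, 12.8% and 9.35% were higher and 22.6%, 14.3% and 35.7% lower, and several of the counts lie near these shares. Fastkd2, which binds mitochondrial RNA and serves the large ribosomal subunit, was the only list member past 2-fold the same way in all 3 groups. Its FPKM was 1.65, 1.18 and 2.18 with IgG and 6.36, 3.12 and 10.0 with anti-EZH2. The IgG values are low, and the share of all genes past 2-fold the same way in all 3 groups is not given here. Whether 1 such member exceeds that share was therefore not tested. Tfam, which packs the mitochondrial genome and serves its transcription, was at 4.56, 8.10 and 4.08 with IgG and 4.45, 6.97 and 1.54 with anti-EZH2. Polg, the polymerase that copies that genome, was at 4.71, 6.00 and 5.71 with IgG and 2.06, 35.7 and 3.78 with anti-EZH2, so that its AngII 4 h anti-EZH2 library stood above the other 5. Of the genes of Polycomb repressive complex 2, Ezh2 was at 1.67, 1.04 and 2.06 with IgG and 0.266, 1.19 and 0.659 with anti-EZH2, Eed lay between 0.112 and 2.21 and Suz12 between 1.12 and 4.81. RIP recovers RNA bound by the protein, so the level of the Ezh2 mRNA is no check of the labels.

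The table of the whole series gives another account of the mRNAs. Its 8 mitochondrial entries were named for mt-Tf, mt-Co1, mt-Cytb, mt-Tq, mt-Ta, mt-Ts1, mt-Nd6 and mt-Tp. When neighbouring genes of the same strand were joined wherever they lay at most 100 nt apart, 8 runs resulted, and the first gene of each run was 1 of these 8 names. The entry named mt-Tf would then stand for 10 genes, both rRNAs among them, and the entry named mt-Co1 for 16 genes, 9 mRNAs among them. The mt-Tf entry held 48.7%, 51.7% and 14.3% of the FPKM of a library with IgG and 40.3%, 46.1% and 28.9% with anti-EZH2.

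By the series table the mt-Co1 entry had an anti-EZH2/IgG ratio of 1.16 in Sham, 1.38 for AngII 4 h and 1.86 for AngII 24 h, whereas mt-Co1 in the separate tables had 0.978, 0.875 and 0.664. For mt-Cytb the ratios were 0.893, 0.912 and 1.16 by the series table and 0.879, 0.825 and 0.684 by the separate tables. For mt-Nd6 they were 1.14, 1.27 and 1.15 and 1.09, 0.823 and 0.736. Read against 1, the direction after AngII thus depends on the table for mt-Co1 and mt-Nd6 in both AngII groups and for mt-Cytb at AngII 24 h. For mt-Ts1 the ratio was above 2 in every group by either table, at 9.40, 2.85 and 3.57 by the series table and 19.0, 2.61 and 2.55 by the separate tables, although the smallest value behind it rests on 3 reads. The tables differ over nuclear genes as well. Their median ratio was 0.989, 1.11 and 1.09 by the series table and 0.777, 0.909 and 0.647 by the separate tables. Read after AngII against the nuclear median of the same table, mt-Co1 and mt-Nd6 turned with the table only at AngII 4 h. At AngII 24 h mt-Co1, mt-Nd6 and mt-Cytb lay above that median by either table.

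**Figure D5:**
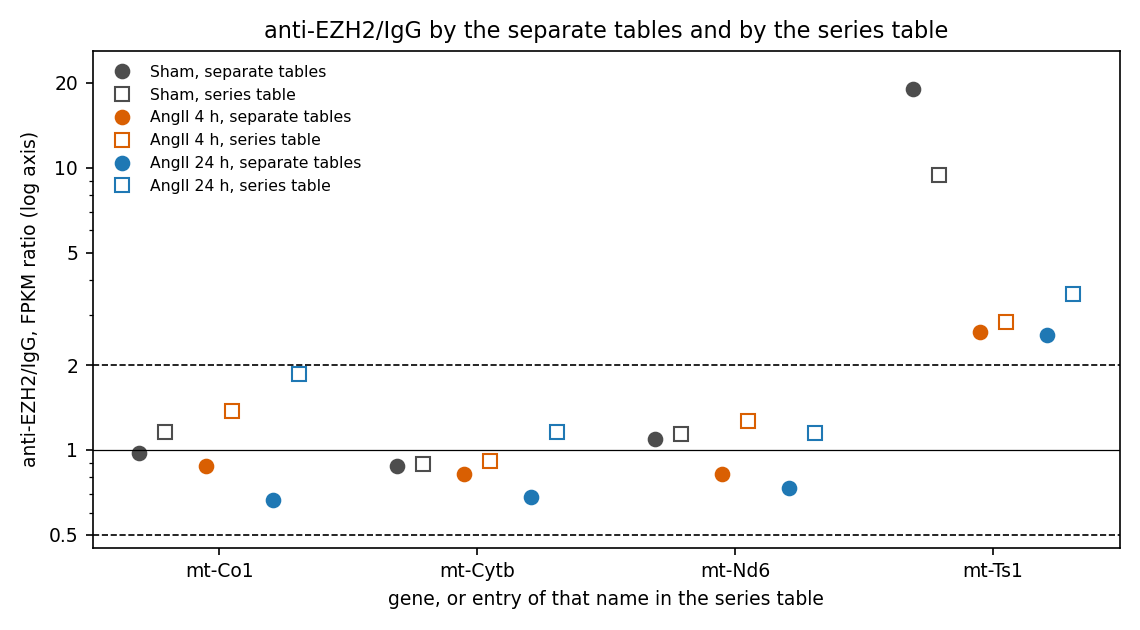
anti-EZH2/IgG ratio of FPKM (vertical log axis) of 4 genes by the separate tables (filled circles) and of the entries of the same names in the series table (open squares), in Sham, AngII 4 h and AngII 24 h. Dashed lines mark 2-fold, and mt-Ts1 lies above it by either table (2.55 to 19.0), while mt-Co1 lies below 1 at AngII 24 h by the separate tables (0.664) and above 1 by the series table (1.86).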

How the data were processed

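The authors mapped the reads to mm10 with TopHat2 (per the submitters' processing notes) and deposited FPKM. The program and annotation behind the FPKM are not given in the sources used here, although the layout of the separate tables is that of Cufflinks. Gene loci equalled GENCODE M21 (GRCm38) for all 37 genes, and entries of the same identifier were summed. FPKM below 0.001, of which there were 787, were taken as 0.

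Ratios were calculated from the FPKM without a pseudocount. A gene was compared when above 0 in both libraries and above 1 FPKM in 1 of them. Reads were recovered from the tRNAs with a fragment length of 200 ± 80 nt (mean and SD) and a shortest fragment of 33 or 34 nt, which differs between the libraries of Sham and of AngII 24 h, so that ratios of FPKM and of reads differ slightly there. Reads of mRNAs and rRNAs are estimates on this scale. Nuclear copies were sought with blastn 2.17.0 among GENCODE transcripts. The scripting language was Python 3.11.15 with scipy 1.17.1, pandas 2.3.3, numpy 2.4.6 and matplotlib 3.10.9, and the procedures were tested on simulated data.

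Of the FPKM intervals deposited by the authors, 114 of 150 lay below their own FPKM for these genes, so they were used only as an alternative. All mitochondrial genes were accounted for. Values in every library were given for the mRNAs, rRNAs and tRNAs above 0 in all 6 libraries. For the gene lists (nuclear subunits, mitochondrial transcription and RNA processing, Ezh2, Eed and Suz12, and cell type markers), at most the 3 with the highest mean FPKM and those past 2-fold the same way in all groups were given. Names given to single high, low or short members were chosen after their values were seen. Twnk, Mrm2 and Mrm3 were matched through older symbols. Groups were taken from the labels, and with 1 library for each group and antibody no test was made. The alternatives were the series table, scaling to nuclear genes, other fold thresholds, the deposited intervals, weighting by length, and leaving out tRNAs, short mRNAs or low counts. Ratios without the FPKM minimum and with a pseudocount of 1 were also among them. The members and lists were chosen with earlier results of these data known. A value was taken as moved when another setting changed it by more than 1.5-fold.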

Additional observations from a re-analysis of the deposited data

Results flagged for a closer look

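In 2 genes the anti-EZH2/IgG ratio was more than 1.25-fold above 1 in 1 group and more than 1.25-fold below 1 in another. The ratio of mt-Nd3 was 1.47 in Sham, from an estimated 232 reads with IgG and 450 with anti-EZH2, and 0.729 at AngII 4 h, from an estimated 643 and 712 reads. The ratio of mt-Tc, the tRNA for cysteine, was 3.64 in Sham, from 1 read with IgG and 5 with anti-EZH2, and 0.549 at AngII 4 h, from 6 and 5 reads. The 95% intervals of its ratio of reads, 0.425 to 180 in Sham and 0.132 to 2.16 at AngII 4 h, both held 1. With 1 library for each group and antibody these differences between groups were not tested.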

How the results depend on the processing

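No paired analysis was possible because within a group each antibody had 1 library, and no library could be left out of such a comparison. A fit of the antibody over the 3 groups, with the group as a block, was not run. Of 168 alternative values for 48 values and counts, 131 moved by at most 1.5-fold. The 27 without an FPKM minimum and the 15 with a pseudocount of 1 are among these 131. Those settings could hardly move a value, since the genes concerned lie well above 1 FPKM. The 21 with the nuclear copies added are also among the 131. Ratios between libraries could hardly move there, since the listed copies followed their mRNAs. Read against 1, the series table turned the direction of several mRNA medians. The counts of genes past 2-fold higher with anti-EZH2, 5 in Sham, 6 for AngII 4 h and 3 for AngII 24 h, were 1, 1 and 3 by the series table, 3, 2 and 1 when the deposited intervals had to lie apart, and 0 in each group without the tRNAs. After scaling to nuclear genes the counts were 6, 7 and 5. At AngII 24 h the count was 5 past 1.5-fold, and past 1.5-fold lower there were 2 genes for AngII 4 h and 4 for AngII 24 h. Without genes under 10 reads in both libraries, a setting chosen after seeing the data, as was the addition of the nuclear copies, the count was 3 in Sham. By the series table, the median ratio of the 3 mRNA entries was 1.27 for AngII 4 h and 1.16 for AngII 24 h, above rather than below 1. With IgG the AngII 24 h library was 0.444 times Sham by that table, where the separate tables gave 1.30, and 0.347 times AngII 4 h. The nuclear protein-coding genes of the series table had medians of 1.67 and 1.93 in the same comparisons. The share of the mitochondrial entries in the FPKM was 52.9% and 58.3% (IgG, Sham and AngII 4 h) and 48.2% and 56.7% (anti-EZH2) by the series table. The mRNAs over protein-coding genes held 22.2%, 30.1%, 25.3%, 26.8% and 26.6% (3 IgG libraries, then Sham and AngII 4 h with anti-EZH2). Weighted by length the share was 26.6% and 27.5% (IgG, Sham and AngII 24 h), and 2.42% (anti-EZH2, AngII 4 h), where no rRNA has a value. mt-Nd6 over the median of the series table entries named mt-Co1 and mt-Cytb was 0.190, 0.184 and 0.378 with IgG and 0.195, 0.181 and 0.247 with anti-EZH2. The plus-strand entry named mt-Tf was left out of that median. Nuclear subunits at AngII 24 h had medians of 0.917 (complex I) and 0.901 (complex V) by the series table. With that table the make-up of the mRNAs and the rRNA ratio were not run, since these genes are merged in it. Depth limits the tRNAs, at 21 reads in the Sham IgG library.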
